A study of Homo sapiens with 4 samples.

Results

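The insulin-like growth factor (IGF) genes described here are 10 genes chosen by symbol: the binding protein genes IGFBP2 to IGFBP7, the receptor genes IGF1R and IGF2R, and the adaptor genes IRS1 and IRS2. All 10 were measured, by 13 of the 28096 array probes annotated to 1 gene, among 18852 genes in all. They were chosen because IGFBP3 moved in opposite directions in the lines, so the SOX2 siRNA responses below are a description with no test. The arrays were Illumina HumanHT-12 v3 BeadChips, which carry oligonucleotide probes and use one colour, and the RNA came from LK2 and H520, established lines of human lung squamous cell carcinoma. The 4 groups were LK2 with a pool of siRNAs against SOX2, LK2 with scrambled control siRNAs, H520 with the SOX2 pool and H520 with the scrambled control, each harvested at 48 h and each on 1 array. Every cell was therefore exposed to some siRNA, and each line stands alone as a model of its kind. Whether cells of the groups were grown in separate experiments is not in the labels, and array noise cannot be told apart from a response.

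IGF1 and IGF2 are secreted peptides that bind the receptor tyrosine kinase IGF1R, which signals through the docking proteins IRS1 and IRS2 to the PI3 kinase and AKT and to the MAP kinases. IGF2R, the mannose 6-phosphate receptor, takes IGF2 to the lysosome, and the IGFBP proteins hold the ligands outside the cell and limit or prolong their action. IGFBP3 is the main IGF carrier of serum, has effects on cell growth that do not need the ligand, and is a known p53 target gene that is often methylated in lung cancer.

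The deposited values are log2 values centred on each probe, so a value near 0 is not a low level and no level can be compared between probes. For the same reason, whether a squamous marker was present could not be read. By its 2 probes SOX2 was at 26.9% and 19.9% of control in LK2 and at 63.2% and 63.8% in H520, so the knockdown seen on the arrays was unequal between the lines. The part of that inequality in the differences below was not tested. Gene means of 7 fibroblast markers differed between SOX2 siRNA and control by -0.02 to 0.47 in LK2 and -0.20 to 0.16 in H520. For 4 leukocyte markers these differences were 0.04 to 0.40 in LK2 and -0.25 to 0.29 in H520. These means cover probes that disagree. In LK2, for example, the probes of LUM gave 0.84 and 0.11, and those of CD68 gave 0.84, 0.44 and -0.07.

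The regions around the gene starts of IGFBP3, which responded in opposite directions, and of IGFBP4 and IGFBP6, the binding protein genes that were higher by over 0.4 on the log2 scale in both lines, are printed for comparison. Each runs from 250 bases before to 50 bases after the start (RefSeq, GRCh38.p14), 5′ to 3′ on the gene's strand. Capitals mark GC boxes (GGGCGG or its reverse complement CCGCCC) and the TATA box letters TATAAA.
IGFBP3, chr7:45921223-45921522, minus strand: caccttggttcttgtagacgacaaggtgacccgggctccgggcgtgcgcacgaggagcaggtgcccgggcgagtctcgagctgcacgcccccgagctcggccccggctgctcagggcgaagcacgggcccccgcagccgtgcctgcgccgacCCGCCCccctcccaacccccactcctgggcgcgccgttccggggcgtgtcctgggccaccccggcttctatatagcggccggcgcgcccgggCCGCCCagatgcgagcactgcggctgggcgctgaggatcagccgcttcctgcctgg
IGFBP4, chr17:40443200-40443499, plus strand: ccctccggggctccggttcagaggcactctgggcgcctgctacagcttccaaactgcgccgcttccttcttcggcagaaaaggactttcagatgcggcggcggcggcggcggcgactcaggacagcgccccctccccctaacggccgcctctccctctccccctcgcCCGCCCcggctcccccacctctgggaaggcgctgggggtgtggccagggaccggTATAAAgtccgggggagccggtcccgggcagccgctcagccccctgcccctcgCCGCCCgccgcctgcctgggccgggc
IGFBP6, chr12:53097417-53097716, plus strand: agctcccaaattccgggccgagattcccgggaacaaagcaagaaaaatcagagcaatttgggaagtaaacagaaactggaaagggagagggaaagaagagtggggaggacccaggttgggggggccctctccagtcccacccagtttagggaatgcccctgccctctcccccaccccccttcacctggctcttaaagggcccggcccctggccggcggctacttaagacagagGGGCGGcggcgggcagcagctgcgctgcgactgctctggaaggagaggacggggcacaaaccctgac

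The IGFBP3 window held 2 GC boxes and 36 CpG dinucleotides, IGFBP4 held 2 GC boxes, 30 CpG dinucleotides and 1 TATAAA that began at base -29, and IGFBP6 held 1 GC box and 12 CpG dinucleotides. The median of 34943 promoter windows was 14.0 CpG dinucleotides. A form of the core letters of SOX factor motifs, ACAAT or its reverse complement ATTGT, was counted. It occurred in 0 of the 11 windows listed for 9 of the 10 genes, and in 27.4% of all promoter windows. Other forms of that core were not searched for, and the printed IGFBP6 window holds the letters aacaaag. The GC content was 55.3% to 79.7% in the 11 windows, against a median of 58.7% over all promoter windows. GC boxes occurred in 44.9% and TATAAA or its reverse complement in 11.6% of all windows. No other TATA letters were searched for, so the tatata in the printed IGFBP3 window is not marked or counted. The letters of TATAAA and ACAAT can share a base, as can their reverse complements, and no match says only that these letters are not in these windows.

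IGFBP3 gave the widest response of the 10 genes, and its direction differed between the lines by both of its probes. Probe ILMN_1746085 read 0.65 with SOX2 siRNA and -1.25 with control siRNA in LK2. In H520 the same probe read -0.92 with SOX2 siRNA and 0.48 with control siRNA. The SOX2 siRNA array was thus the higher one in LK2 and the lower one in H520.

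The other IGFBP3 probe, ILMN_2396875, is annotated to another transcript record of the gene. It read 0.17 with SOX2 siRNA and -1.15 with control siRNA in LK2. In H520 it read -0.60 with SOX2 siRNA and 0.997 with control siRNA. Both probes therefore gave the same direction within each line. Over the 4 arrays the highest was LK2 with SOX2 siRNA by ILMN_1746085 and H520 with control siRNA by ILMN_2396875. With SOX2 siRNA, IGFBP3 was 3.75-fold and 2.50-fold higher than control in LK2 by the 2 probes, and stood at 37.9% and 33.1% of control in H520. The log2 differences were 1.91 and 1.32 in LK2 and -1.40 and -1.59 in H520.

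The 2 probes of a gene differed with an SD of 0.21 in LK2 and 0.18 in H520 on the log2 scale, over 3934 genes with 2 probes. The IGFBP3 differences were several times that spread in each line, although it measures agreement between probes on the same arrays and not between cultures. In LK2, 35 and 128 of the 48801 probes had a larger absolute difference than the IGFBP3 probes, and 30 and 13 in H520. The response in LK2 minus that in H520 was 3.31 and 2.92, and 2 and 5 probes of the array exceeded these in size, the first IGFBP3 probe among the 5. At 2-fold, 3 probes of the array (0.00615%) went opposite ways in the lines, 2 of them those of IGFBP3, the choice on which the whole set rests. Since IGFBP3 was picked for this opposition, the spread and ranks given here are description and lend it no support. A quantile normalization of the deposited values moved H520 to -2.45 and -2.85 and LK2 to 1.39 and 0.996, with the directions kept. It rescales columns whose SD was 0.432 and 0.414 in LK2 and 0.193 and 0.191 in H520. It is therefore no check on the sizes of the responses.

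**Figure D1:**
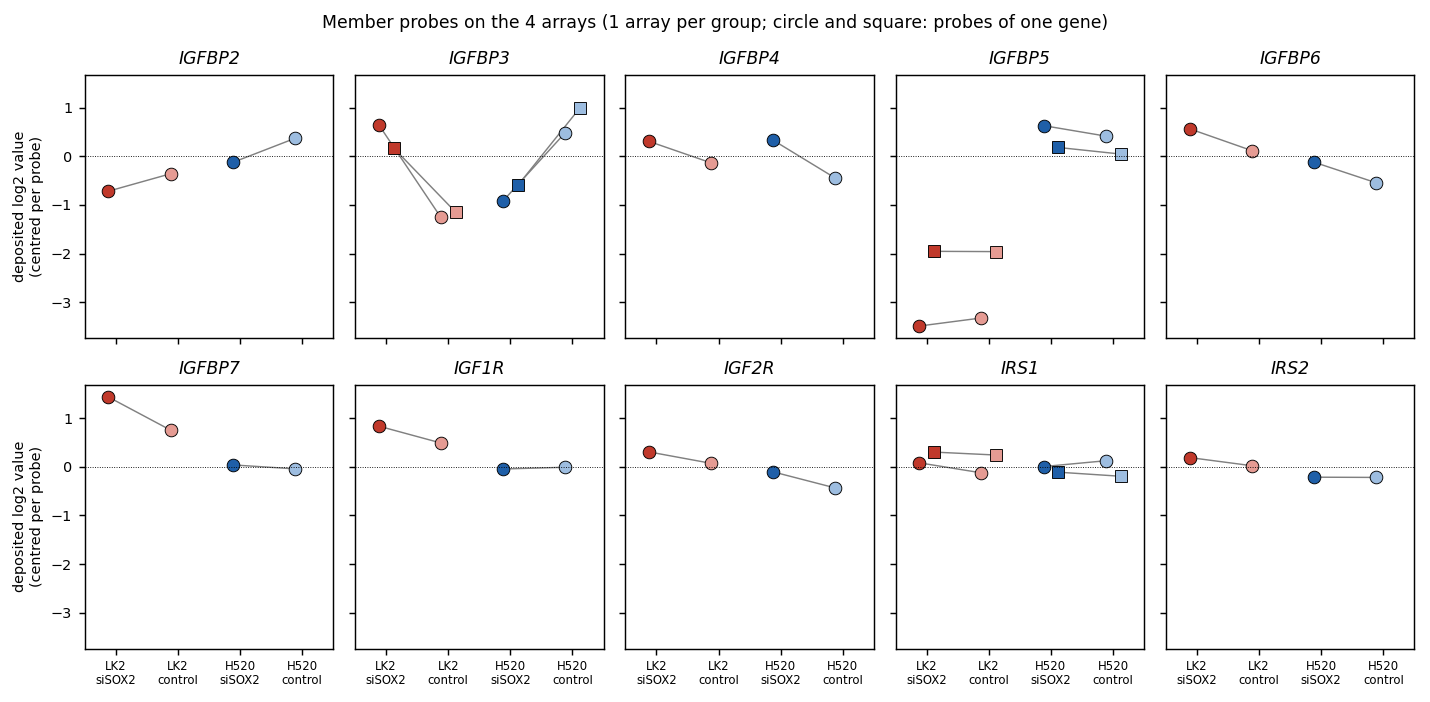
Deposited log2 values, centred per probe, of the 13 probes of the 10 genes (vertical axis) on the 4 arrays (horizontal axis, 1 array per group); circles and squares are different probes of a gene, and grey lines join the arrays of a line. The slopes of IGFBP3 are opposite, 0.65 against -1.25 in LK2 and -0.92 against 0.48 in H520 by probe ILMN_1746085, while IGFBP5 separates the cell lines whatever the siRNA.

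Because the responses were opposite, the order of the lines turned over. With SOX2 siRNA, IGFBP3 was higher in LK2 than in H520 by 1.57 and 0.77 on the log2 scale. With control siRNA it was lower in LK2 than in H520, with differences of -1.74 and -2.15. No test was made of IGFBP3 between the lines, since the limma error of that comparison is the very difference for which the gene was chosen.

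IGFBP4, a binding protein cleaved by the protease PAPP-A, was higher with SOX2 siRNA in both lines. It read 0.31 with SOX2 siRNA and -0.13 with control siRNA in LK2, and 0.33 with SOX2 siRNA and -0.45 with control siRNA in H520. The differences were 0.44 in LK2 and 0.78 in H520, or 1.36-fold and 1.72-fold, so the 2 SOX2 siRNA arrays lay above the 2 control arrays.

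IGFBP6, which prefers IGF2 over IGF1, was also higher with SOX2 siRNA in both lines. It read 0.57 with SOX2 siRNA and 0.12 with control siRNA in LK2, and -0.12 with SOX2 siRNA and -0.54 with control siRNA in H520. The differences, 0.45 in LK2 and 0.42 in H520, were close in size, and only 0.02 separated the responses of the lines. Both fell short of 1.5-fold, which is 0.585 on the log2 scale.

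IGFBP2 was lower with SOX2 siRNA in both lines, the only one of the 10 genes to be so. It read -0.72 with SOX2 siRNA and -0.36 with control siRNA in LK2, and -0.13 with SOX2 siRNA and 0.37 with control siRNA in H520. The differences were -0.36 in LK2 and -0.49 in H520, short of 1.5-fold in each. IGFBP2 encodes a binding protein widely made by epithelial and tumour cells.

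IGFBP7, a secreted protein that binds IGFs with low affinity, passed 1.5-fold in LK2 alone. It read 1.44 with SOX2 siRNA and 0.76 with control siRNA in LK2, a difference of 0.68. In H520 it read 0.04 with SOX2 siRNA and -0.04 with control siRNA, a difference of 0.08. Whether the lines differ in this response was not tested. With the quantile normalization repeated, the LK2 difference was 0.42, short of 1.5-fold. That step rescales columns of unequal spread, so it is no check on the size of this response.

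IGFBP5, a binding protein that also attaches to extracellular matrix, stayed within 1.5-fold between siRNAs on either pair of arrays. Its probes gave -0.17 and 0.01 in LK2 and 0.22 and 0.14 in H520, within or near the spread between probes of a gene. With the quantile normalization repeated, probe ILMN_1750324 gave 0.00 in LK2 and 0.39 in H520, the second above that spread. The rescaling of the columns makes this no check on size either.

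The receptor genes gave small differences. IGF1R, the signalling receptor, read 0.84 with SOX2 siRNA and 0.49 with control siRNA in LK2, a difference of 0.35, and -0.04 with SOX2 siRNA and -0.01 with control siRNA in H520, a difference of -0.04. IGF2R, which clears IGF2, read 0.31 with SOX2 siRNA and 0.07 with control siRNA in LK2, a difference of 0.23, and -0.10 with SOX2 siRNA and -0.43 with control siRNA in H520, a difference of 0.33. Neither reached 1.5-fold in either line.

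The adaptor genes also gave small differences. IRS1 differed by 0.21 in LK2 and -0.12 in H520 by probe ILMN_1883348 and by 0.06 in LK2 and 0.08 in H520 by probe ILMN_1759232. IRS2 differed by 0.17 in LK2 and by 0.00 in H520. The IRS1 probes disagreed in direction in H520, at a size below the spread between probes.

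**Figure D2:**
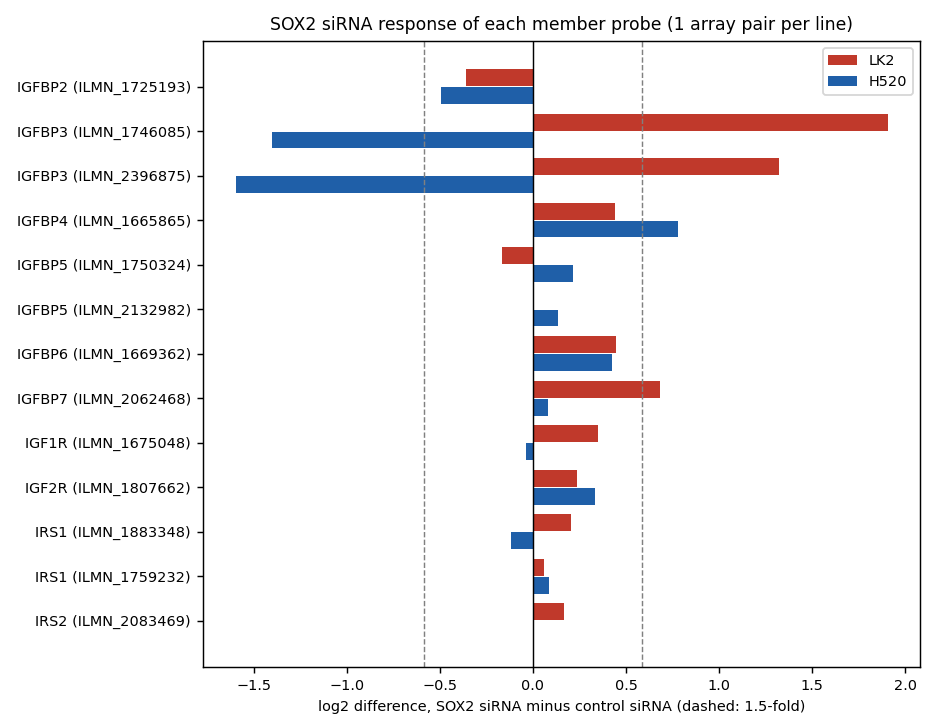
Log2 difference, SOX2 siRNA minus control siRNA (horizontal axis), of each of the 13 probes (vertical axis) in LK2 (red) and H520 (blue), 1 pair of arrays per line; dashed lines mark 1.5-fold. IGFBP3 alone has long bars to both sides (1.91 and 1.32 in LK2, -1.40 and -1.59 in H520), and 9 probes stay within the dashed lines in both lines.

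By probe, 3 of the 13 were at least 1.5-fold higher with SOX2 siRNA in LK2 (2 of IGFBP3 and that of IGFBP7), against 1.5% of all 48801 probes, and 0 were lower, against 0.93%. In H520, 1 was higher (IGFBP4), against 0.59% of all probes, and 2 were lower (those of IGFBP3), against 0.742%. Of the 28096 probes annotated to 1 gene, 2.17% were higher and 1.45% lower in LK2, and 0.9% higher and 1.17% lower in H520. The genes were chosen from this contrast, so nothing is read from these shares. With the quantile normalization repeated, the H520 differences were 1.19 for IGFBP4, 0.75 for IGFBP6, 0.56 for IGF2R and -0.70 for IGFBP2. These sizes follow the rescaling of the H520 columns, whose spread was the smaller, and are not read as responses past 1.5-fold. The median log2 difference over the 13 probes was 0.23 in LK2 and 0.08 in H520, against -0.00449 and 0.00155 over all probes. Leaving IGFBP3 aside, 5 of the other 9 genes were higher in both lines, 1 was lower in both and 3 had opposite signs, none of the 9 with 1.5-fold in both lines. Over all 18852 genes, 27.0% were higher in both, 27.0% lower in both and 45.9% had opposite signs.

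**Figure D3:**
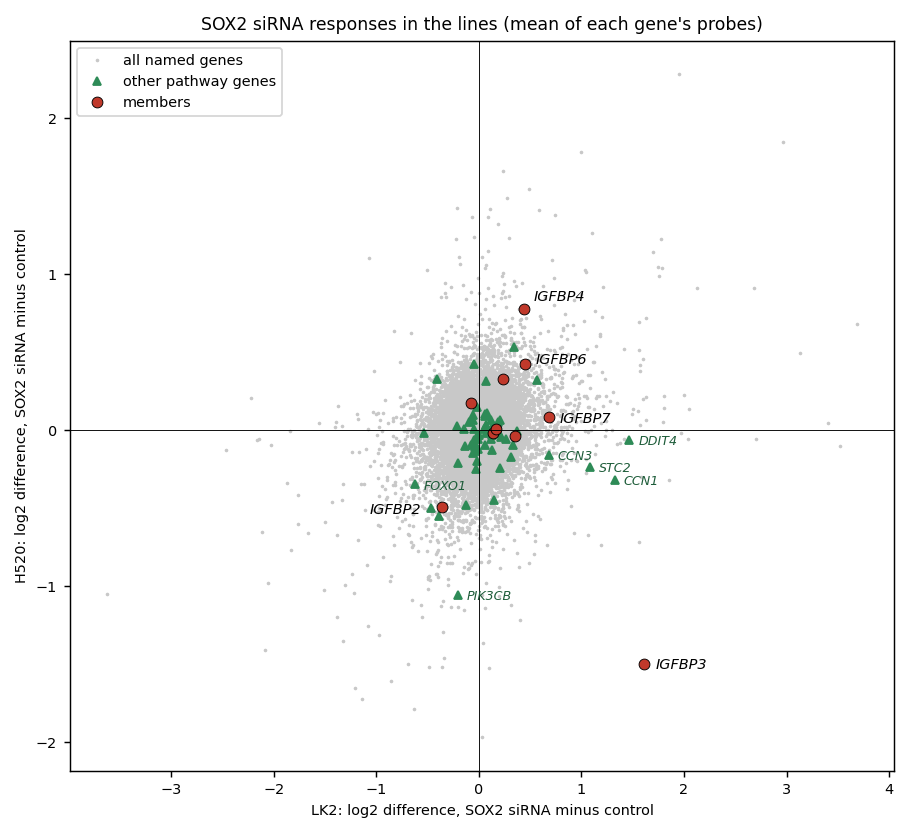
Log2 difference, SOX2 siRNA minus control siRNA, in LK2 (horizontal axis) and in H520 (vertical axis), as the mean of each gene's probes; grey points are all 18852 genes, red circles the 10 genes described and green triangles 59 other pathway genes. IGFBP3 lies alone at the lower right, at 1.61 in LK2 and -1.50 in H520.

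The genes whose pair of responses lay nearest to that of IGFBP3, by Euclidean distance over the 2 lines on the log2 scale, were still far from it. WIPI1, an autophagy gene, was at 1.56 in LK2 and -0.72 in H520, a distance of 0.784. MT2A, a metallothionein gene, was at 1.19 and -0.74 (distance 0.869), EXOG, a mitochondrial nuclease gene, at 1.06 and -0.67 (0.994), ULBP1, an NKG2D ligand gene, at 0.93 and -0.66 (1.08) and TWIST1, a transcription factor gene, at 1.58 and -0.30 (1.20), in LK2 and H520 in that order. Each of these 5 genes has 1 probe, and each was lower in H520 by less than IGFBP3 was.

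The genes next to IGFBP3 did not share its pattern in these arrays. IGFBP1, the neighbouring binding protein gene on chromosome 7 (GRCh38.p14), differed by -0.08 in LK2 and -0.09 in H520. Of the next measured genes, SEPTIN7P2 was at -0.09 in LK2 and -0.13 in H520, TNS3, a focal adhesion gene, at -0.74 and -0.09, and PKD1L1 at -0.14 and 0.01, in LK2 and H520 in that order.

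The difference between the lines, LK2 minus H520, was not part of the rule that chose the genes, although earlier results of these data were known. This difference was tested with limma over all 48801 probes, with siRNA as a block and Benjamini-Hochberg adjustment. Its error, like its p-value, rests on how far the siRNA responses of the lines differ, moderated across probes. Each probe had 1 residual degree of freedom, and 9.35 came from all probes together. With 1 array per group, neither the SE nor the p-value measures the spread between cultures of a line. Of 11 probes of the 9 genes other than IGFBP3, 5 were higher and 3 lower in LK2 at an adjusted p under 0.05. Over all probes, 9.37% were higher and 9.86% lower in LK2. With the mean of each gene's probes, 4 of the genes were higher and 2 lower, against 14.0% and 13.4% of all genes.

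IGFBP5 gave the largest difference between the lines. Its probe ILMN_1750324 read -3.49 with SOX2 siRNA and -3.32 with control siRNA in LK2, against 0.63 with SOX2 siRNA and 0.42 with control siRNA in H520. Its probe ILMN_2132982 read -1.95 with SOX2 siRNA and -1.96 with control siRNA in LK2, against 0.18 with SOX2 siRNA and 0.05 with control siRNA in H520. Both LK2 arrays were far below both H520 arrays by each probe. The LK2 minus H520 differences were -3.93 ± 0.12 (SE, limma adjusted p = 1.26e-08) and -2.07 ± 0.11 (limma adjusted p = 3.99e-07). In other words, IGFBP5 was 15.3-fold and 4.20-fold higher in H520 than in LK2, the probes differing in size but not in direction.

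IGFBP7 was higher in LK2, by 1.10 ± 0.14 on the log2 scale (SE, limma adjusted p = 0.00025). The difference was 1.40 on the SOX2 siRNA arrays and 0.80 on the control arrays. IGFBP6 was higher in LK2 by 0.67 ± 0.11 (limma adjusted p = 0.00111), with 0.69 on the SOX2 siRNA arrays and 0.66 on the control arrays. IGFBP2 was lower in LK2, at -0.66 ± 0.11 (limma adjusted p = 0.00145), with -0.59 on the SOX2 siRNA arrays and -0.73 on the control arrays. Of the tested binding protein genes, IGFBP6 and IGFBP7 were thus higher in LK2 and IGFBP2 and IGFBP5 higher in H520. For IGFBP4 the difference, 0.14 with a 95% interval of ±0.27, did not pass (limma adjusted p = 0.503).

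IGF1R was higher in LK2 by 0.69 ± 0.12 (SE, limma adjusted p = 0.00219) and IGF2R by 0.46 ± 0.11 (limma adjusted p = 0.0128). Both receptor genes were higher in LK2 whether the arrays held SOX2 siRNA (0.88 and 0.41) or control siRNA (0.50 and 0.51). IRS1 was higher in LK2 by probe ILMN_1759232, at 0.42 ± 0.11 (limma adjusted p = 0.0187), but not by probe ILMN_1883348, at -0.09 ± 0.12 (limma adjusted p = 0.713). With the mean of its probes, IRS1 did not pass (limma adjusted p = 0.306). IRS2 was at 0.32 with a 95% interval of ±0.25 and did not pass after adjustment (limma adjusted p = 0.0742). Without the siRNA block the calls of IGFBP2, IGFBP6 and IGF2R were lost (limma adjusted p = 0.0656, 0.0623 and 0.0864).

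**Figure D4:**
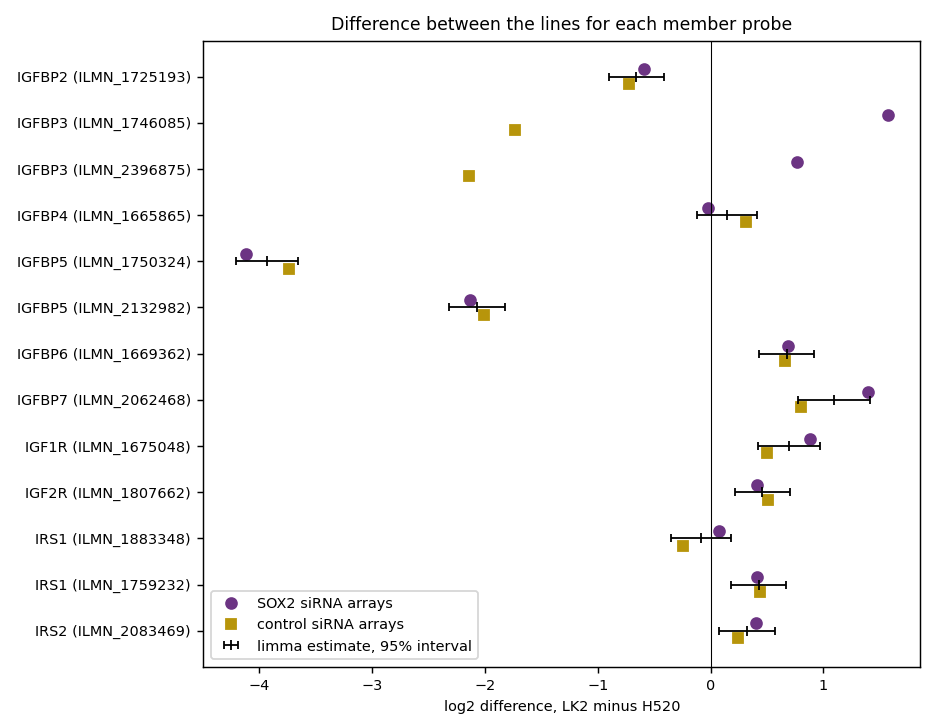
Log2 difference, LK2 minus H520 (horizontal axis), of each of the 13 probes (vertical axis) on the SOX2 siRNA arrays (circles) and the control siRNA arrays (squares); black bars are the limma estimate with its 95% interval, drawn for all probes but those of IGFBP3. The circles and squares of IGFBP3 lie on opposite sides of 0 (1.57 and -1.74 by probe ILMN_1746085), while those of IGFBP5 lie together between -4.12 and -2.01.

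A further 63 genes of the pathway were listed by role, and 59 of them are analysed here. Over both lines, 0 of the 59 passed the limma test of SOX2 siRNA against control, with cell line as a block, where 1 of 18852 genes (0.0053%) was higher and 0 were lower. At an unadjusted p under 0.05 there were 7 of the 59, against 8.40% of all genes (1584). With probes tested separately or with no block, 0 passed as well. In LK2, 4 of the 59 were at least 1.5-fold higher and 1 lower, against 1.90% and 1.30% of all genes. In H520, 0 were higher and 1 was lower, against 0.806% and 1.07% of all genes. The median difference over the 59 was 0.05 in LK2 and -0.04 in H520, against -0.00309 and 0.00243 over all genes.

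The ligand genes did not follow IGFBP3. IGF1 differed by -0.13 in LK2 and -0.48 in H520, and the 6 ligand and carrier genes all stayed within 1.5-fold in both lines. None of the 10 further receptor and adaptor genes passed 1.5-fold either, INSR, the insulin receptor gene, being at 0.20 in LK2 and -0.24 in H520. Their range was -0.15 to 0.34 in LK2 and -0.24 to 0.53 in H520.

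Among proteases that cut IGFBPs and the inhibitors of these proteases, STC2 passed the fold. STC2, stanniocalcin 2, is known to inhibit PAPP-A, the protease of IGFBP4. It read 1.45 with SOX2 siRNA and 0.37 with control siRNA in LK2, a difference of 1.08, and -1.76 with SOX2 siRNA and -1.53 with control siRNA in H520, a difference of -0.23. The protease gene PAPPA itself was at -0.22 in LK2 and 0.02 in H520, and STC1 at -0.41 and 0.33.

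Of the 8 secreted proteins that carry an IGFBP domain, CCN1 and CCN3 passed the fold in LK2. CCN1, a matrix protein gene, read 4.12 with SOX2 siRNA and 2.79 with control siRNA in LK2, a difference of 1.32, and -0.16 with SOX2 siRNA and 0.16 with control siRNA in H520, a difference of -0.32. CCN3 was at 0.68 in LK2 and -0.16 in H520. Of these 8 genes, 5 had differences above 0 in LK2 and below 0 in H520, with CCN6 and ESM1 among them by at most 0.11 in either line. Of the 59 other pathway genes together, 18 had this pair of signs, and of all genes 22.2%.

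The kinases below the receptors differed little, apart from PIK3CB, the p110 beta catalytic subunit of PI3 kinase. It read -0.35 with SOX2 siRNA and -0.15 with control siRNA in LK2, a difference of -0.21, and -0.81 with SOX2 siRNA and 0.24 with control siRNA in H520, a difference of -1.06. The other 10 of 11 measured kinase pathway genes stayed within 1.5-fold in both lines. Among the negative regulators, DDIT4, a stress-induced inhibitor of mTOR signalling, read 0.73 with SOX2 siRNA and -0.73 with control siRNA in LK2, a difference of 1.47, and differed by -0.06 in H520. FOXO1, a transcription factor held in check by AKT, was at -0.63 in LK2 and -0.35 in H520. Each gene named here for its fold has 1 probe.

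**Figure D5:**
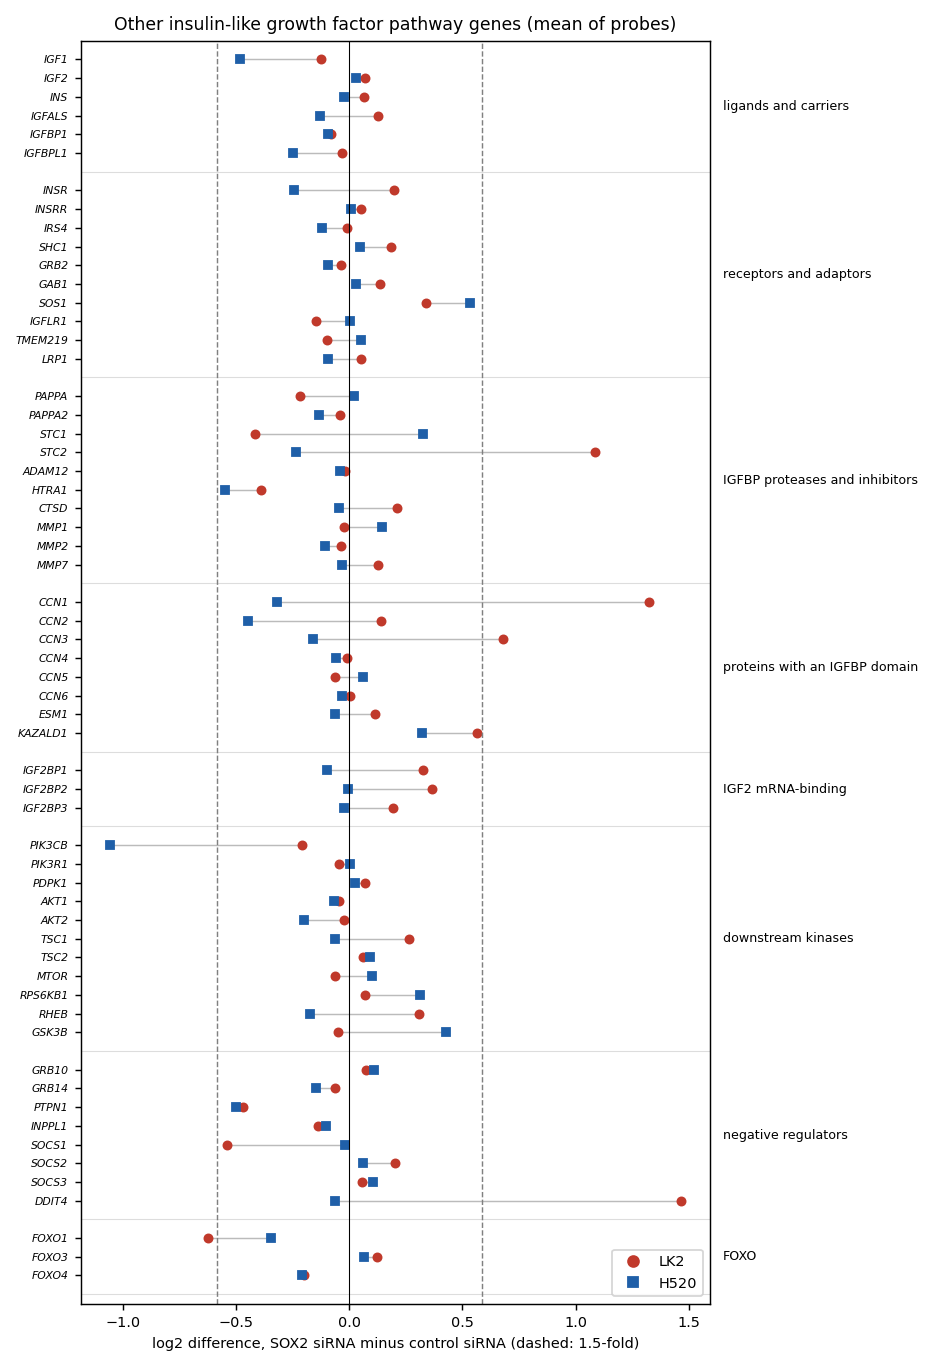
Log2 difference, SOX2 siRNA minus control siRNA (horizontal axis), of 59 other pathway genes (vertical axis, grouped by role) in LK2 (red circles) and H520 (blue squares), as the mean of each gene's probes; dashed lines mark 1.5-fold. STC2, CCN1, CCN3 and DDIT4 lie right of the upper line in LK2 (1.08, 1.32, 0.68 and 1.47), FOXO1 lies left of the lower line in LK2 (-0.63) and PIK3CB in H520 (-1.06).

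Between the lines, 15 of the 59 genes were higher and 5 lower in LK2 by limma with siRNA as a block, against 14.0% and 13.4% of all genes. IGF1, singled out after its values were seen, was lower in LK2, at -2.38 ± 0.12 (SE, limma adjusted p = 9.30e-05), or 5.21-fold higher in H520. Its values were -2.40 with SOX2 siRNA and -2.27 with control siRNA in LK2, and -0.20 with SOX2 siRNA and 0.29 with control siRNA in H520. The genes of the IGF2 mRNA-binding proteins IGF2BP2 and IGF2BP3, chosen in the same way, were higher in LK2 by 1.75 ± 0.12 and 1.85 ± 0.11 (limma adjusted p = 0.000285 and 0.000141). CCN1 was higher in LK2 by 3.45 ± 0.35 and STC2 by 2.55 ± 0.28 (limma adjusted p = 0.000941 and 0.00139). CCN1 and STC2 were named for their siRNA response in LK2, and the error of this test rests on how that response differs between the lines. Their SE and p-value are therefore not independent of that choice. The IGF2 gene itself differed between SOX2 siRNA and control by 0.07 in LK2 and 0.03 in H520.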

How the data were processed

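The authors deposited log2 values for 48801 probes of 4 arrays; their normalization is not given in the sources used here. Each column averaged 0.00475 with a median near 0, as after centring per probe on an unknown set of arrays, so only differences between arrays were used. A second deposited table of linear scanner intensities has 4 columns whose names match no sample. They entered no result and were read only to settle the log base (best slopes of 0.896 and 1.06, where log2 gives 1).

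Probes were named from the platform annotation (28096 with 1 symbol, 13 with several, 20692 not listed). Differences are per probe, or means of a gene's probes for the other pathway genes, with 1.5-fold as the size counted. Tests used limma 3.58.1 in R 4.3.3, an additive model of cell line and siRNA with 1 residual degree of freedom, Benjamini-Hochberg adjustment over all probes (or all genes) and two-sided p-values. The fit was run on simulated data with independent noise, planted line differences and no siRNA response. That run checks the code and not the error of the real arrays. The moderation added 9.35 degrees of freedom per probe and 5.19 per gene. With 4 arrays, their number limits the precision, and no p-value covers the spread between cultures.

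Every probe of the 10 genes is reported. Other pathway genes are named where they passed 1.5-fold in a line or limma over both lines, with a few more to show their group, and so are the 5 genes nearest to IGFBP3 and its measured neighbours. The members and lists were chosen with earlier results of these data known, and the GC box and TATA box letters after the data were seen. Alternatives were gene means, other centring and normalization, 2-fold, a variance trend, no block and named probes only. The quantile normalization called repeated was applied here to the deposited values, which were already centred per probe. Whether the authors had used one before is not known. Protein sequences were not used here.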

Additional observations from a re-analysis of the deposited data

Results flagged for a closer look

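IGFBP3 is given again here because SOX2 siRNA lay on opposite sides of control in the lines by at least 1.5-fold, by both probes. Probe ILMN_1746085 differed by 1.91 in LK2 and -1.40 in H520, and probe ILMN_2396875 by 1.32 in LK2 and -1.59 in H520, on the log2 scale. With 1 array per group the difference between the lines was not tested. SOX2 itself stood at 26.9% and 19.9% of control in LK2 and 63.2% and 63.8% in H520, and the part of that inequality in the IGFBP3 difference was not tested.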

How the results depend on the processing

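Arrays were paired through the cell line, which entered the siRNA test as a block, and 0 of the other pathway genes passed with or without it. Each group holds 1 array, so no array could be left out without losing the residual degree of freedom. Of the 26 log2 differences of the 13 probes, all kept their size within the spread between probes when each array was centred on its median, 2 (both IGFBP3 probes in LK2) moved by more with gene means, and 10 when the quantile normalization was repeated, which rescales columns of unequal spread (SD 0.432 and 0.414 in LK2, 0.193 and 0.191 in H520). None of the differences past 1.5-fold changed sign under these 3 settings. At 2-fold, 0 of the 13 probes were higher in H520 and 0 of the other pathway genes lower in LK2, against 1 each at 1.5-fold. With the quantile normalization repeated, 2 probes were at least 1.5-fold higher in H520. With gene means, 1 gene (IGFBP3, with its 2 probes averaged) was lower in H520. With no block, 3 probes were higher in LK2 than in H520 by limma, against 5; the variance trend and the restriction to named probes left the counts at 5 higher and 3 lower. No detection limit was used here, so probes near background cannot be told apart from expressed ones.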
